A study of Mus musculus with 9 samples.

Results

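Plasmacytoid dendritic cells (pDCs) were selected on their own transcripts from a single-cell RNA sequencing data set of mouse bone marrow. A barcode was kept if it held at least 1000 unique molecular identifiers (UMIs, each standing for 1 captured transcript), at least 500 genes and at most 10% mitochondrial UMIs. It was then chosen by its UMIs of named genes and counted as a pDC if it had at least 1 UMI of Siglech, at least 3 UMIs of Siglech, Ccr9 and Cox6a2 together, no UMI of the B cell gene Cd79a and fewer than 3 UMIs of the macrophage genes C1qa, C1qb and C1qc together. The rule selected 2240 pDCs, or 5.74% of the 39051 barcodes within the quality limits, which were themselves part of 68444 barcodes called as cells. Femoral marrow came from 9 female mice aged 9 to 10 weeks, and each mouse gave 1 library. There were 3 mice of the New Zealand White strain (NZW), 3 of the New Zealand Black strain (NZB) and 3 of their F1 hybrid (NZBWF1), bred from NZW mothers and NZB fathers. NZB and NZW are inbred, no mouse was treated, and the hybrid was studied at an age that precedes its lupus-like disease. The comparisons asked how pDCs of the hybrid differ from those of the parents, and how the parents differ from each other.

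pDCs are dendritic cells with a secretory, plasma cell-like shape that arise in the bone marrow and detect viral or self nucleic acids through the endosomal receptors TLR7 and TLR9. Signalling through MyD88 and IRF7 then yields large amounts of type I interferon, the cytokine family most closely tied to lupus. Their identity depends on the transcription factor TCF4 (E2-2), helped by IRF8, SPIB, RUNX2 and BCL11A. Siglec-H and BST2 are surface receptors of mouse pDCs, CCR9 is a homing receptor and Cox6a2 encodes a subunit of cytochrome c oxidase found in few other blood cells.

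The 9 libraries held 2455 to 5684 kept barcodes each. The pDCs of 1 mouse summed to 190103 to 898150 UMIs, and NZW had the fewest cells, 82 to 119 a mouse. The median pDC held 1744.5 UMIs and 981.5 genes. Median depth averaged 1658, 1882 and 1989.5 UMIs in NZB, NZW and NZBWF1 mice, and the test did not separate the strains (exact permutation test over 9 mice, two-sided, p = 0.557). A pair of libraries stood apart in depth (median 1287 UMIs in NZB replicate 2 and 2445 in NZBWF1 replicate 1). Within each replicate number the NZB median was below those of NZW and NZBWF1. Of the kept barcodes, 170 barcode sequences occurred in more than 1 library, but no sequence was a pDC in more than 1. A doublet score marked 104 pDCs. Neutrophil transcripts, the most abundant of the marrow, were the main foreign RNA among pDCs: 9 of 9 neutrophil markers were detected, summing to 11414 to 35241 CPM, the UMIs of a gene scaled to a fixed total, in NZB, 6570.1 to 47499.8 in NZW and 252 to 20426 in NZBWF1 pDCs, where the low value is again replicate 1, against means of 144660 to 175963 in the other cells. The neutrophil level overlapped between the strains. No pDC of NZBWF1 replicate 1 was scored as a doublet, and counts of calls without this library are given below. In NZW replicate 2, 2 pDCs held all 1586 UMIs of the antibody gene Igha, and in NZBWF1 replicate 3 a single pDC held 783 of 803 UMIs of Jchain. The doublet score marked none of these cells, and whether they are doublets with plasma cells was not tested. The 8 plasma cell markers summed to 43 to 55.2 CPM in NZB, 52.6 to 11151 in NZW and 60.3 to 1139 in NZBWF1 pDCs. Ighg2c, 1 of the 8, was at 0 in all pDC libraries.

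The barcodes carried the pDC programme beyond the genes that chose them. Siglech itself stood at 2165, 2303 and 2164 CPM in the 3 NZB mice, 878, 907 and 892 in NZW and 1511, 1485 and 1407 in NZBWF1. NZB pDCs were thus highest for this gene and NZW lowest, with no overlap. Mean Ccr9 ran the same way (895 ± 45.9 CPM in NZB, 561 ± 136 in NZW and 694 ± 113 in NZBWF1; SD, n = 3), and Cox6a2 the opposite way (832 ± 52.8, 1252 ± 14.1 and 1078 ± 40.2). As these genes chose the cells, their levels are given as a description only. Among genes the rule did not use, the mean over 9 mice was 2218 CPM in pDCs and 93 in the other cells for Tcf4, 4733 and 244 for Irf8, 2808 and 76.7 for Bst2, and 726 and 20.7 for Runx2. The genes with the highest ratio to the other cells also included Klk1 (tissue kallikrein), Cadm1 (an adhesion molecule), Ctsl (cathepsin L), P2ry14 (a nucleotide-sugar receptor), Cd209d (a C-type lectin) and Klra17 (Ly49Q, an inhibitory receptor of pDCs). Markers of other cell types were also counted in pDCs. NZW replicate 2 alone had any UMI of Xcr1, of conventional dendritic cells, Cd3e was at or below 8.12 CPM in every mouse, and the 6 basophil and mast cell markers summed to 0 to 98 CPM in NZB and 0 to 21.7 in NZBWF1 and were at 0 in all 3 NZW mice. Summed over its markers, T cells reached 99.9 CPM, macrophages 43, megakaryocytes 8.68, NK cells 479 (mostly Klrd1) at most in any mouse. Conventional dendritic cell markers averaged 216 CPM in NZB, 448 in NZW and 313 in NZBWF1 pDCs against 73 to 77.2 in the other cells. Stem and progenitor markers, nearly all Ly6a, averaged 1368, 155 and 402 CPM against 177, 72.1 and 163 in the other cells. Both sums were thus higher in pDCs than elsewhere and differed between strains. Granulocyte-monocyte precursor markers were highest in NZBWF1 replicate 2 (1425 CPM), with 387 to 595 CPM in NZB and 31.6 to 69.4 in NZW, erythroid markers in NZBWF1 replicate 1 (1651 CPM), and monocyte markers ran from 1017 to 2671 CPM with overlap between the strains. Of the pDCs, 223 (9.96%) sat at the threshold of 3 marker UMIs, 9.03% in NZB, 17.3% in NZW and 8.45% in NZBWF1. Their Bst2, Tcf4 and Irf8 levels were 2426, 1821 and 4082 CPM. The 173 barcodes just outside, with 2 marker UMIs, held 2153, 1651 and 3985 CPM. A further 113 barcodes met the marker rule but carried Cd79a, and 6 carried too much C1q.

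**Figure D1:**
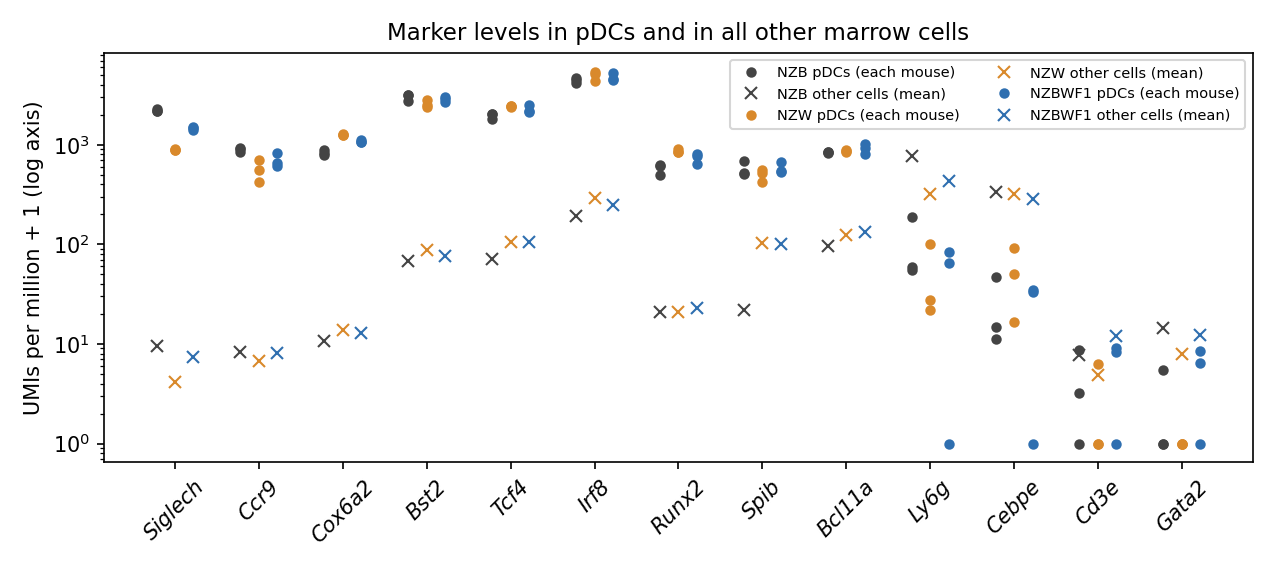
Level of 13 marker genes in CPM plus 1 (log axis). Dots are the pDCs of each mouse and crosses the mean of all other kept cells of the strain. Siglech, Ccr9 and Cox6a2 chose the cells. Bst2, Tcf4, Irf8, Runx2, Spib and Bcl11a lie above the crosses in all 9 mice, and the neutrophil genes Ly6g and Cebpe lie below them.

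pDCs were most frequent in NZB marrow, least frequent in NZW marrow and intermediate in the hybrid. They made up 13, 11.2 and 9.99% of the kept barcodes in the 3 NZB mice, 1.9, 2.31 and 2% in NZW and 4.17, 4.97 and 5.96% in NZBWF1. The groups did not overlap, and the means were 11.4% ± 1.54, 2.07% ± 0.215 and 5.04% ± 0.899 (SD, n = 3 each), a 5.5-fold difference between the parents. An exact permutation test of the 3 strains over 9 mice gave p = 0.00357 (two-sided), the smallest value this design allows. Comparing 2 strains of 3 mice cannot give an exact p below 0.1, which is what each pair gave. NZBWF1 minus the mean of the 6 parental mice was -1.7 percentage points (exact permutation p = 0.56, two-sided). That test pools both parents, so the gap between them enters its spread, and it cannot decide whether the hybrid departs from their mean. All 3 hybrids lay below that mean, 6.73%. The geometric mean of the hybrid, 4.98%, lay near that of the parents, 4.84%.

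Since the strains differed in Siglech itself, the share was also counted with other genes. With Siglech left out of the rule the means were 9.57%, 2.68% and 5.13%, and with Tcf4, Bst2 and Runx2 in place of the 3 genes they were 12.6%, 4.1% and 6.75% in NZB, NZW and NZBWF1, so the parental ratio was 3.58- and 3.07-fold (exact permutation p = 0.00357 for both). Leaving B cell barcodes with Cd79a out of the total gave a 4.36-fold ratio. The place of the hybrid depended on the quality limits. Where at least 2000 UMIs and 1000 genes were required, the shares were 12.5, 3.08 and 5.04% in NZB, 2.49, 1.09 and 1.97% in NZW and 9.63, 2.11 and 4.63% in NZBWF1. The hybrid then overlapped with both parents, and the test of the 3 strains gave an exact p = 0.296, while NZB and NZW still did not overlap and differed 3.72-fold. That limit kept 12.6% of the pDCs of NZB replicate 2 but 92.5% of those of NZBWF1 replicate 1, while among the other cells it kept 37.8 to 49.9% in every mouse. With at most 5% mitochondrial UMIs the shares were 3.53, 4.89 and 3.2% in NZB, 0.359, 0.642 and 0.600% in NZW and 0.289, 1.3 and 1.46% in NZBWF1, so that the hybrid overlapped with NZW, and the test of the 3 strains gave an exact p = 0.0143. Median mitochondrial UMIs averaged 5.87, 6.38 and 6.74% in NZB, NZW and NZBWF1 pDCs and 2.94, 4.4 and 4.28% in the other cells. The limit of 5% thus removed pDCs more than other cells. It left 9, 18 and 18 pDCs in the NZW mice and 4, 44 and 48 in NZBWF1. The size of the difference varied with depth. Among barcodes with 1000 to 1500 UMIs, pDCs made up 23.2% ± 24.3 in NZB, 1.72% ± 1.92 in NZW and 3.97% ± 4.13 in NZBWF1. From 1500 to 2000 UMIs they made up 21.8% ± 14.8, 4.51% ± 0.515 and 8.64% ± 6.64, and from 2000 to 3000 UMIs 8.62% ± 7.18, 2.29% ± 1.06 and 7.38% ± 5.84. Among barcodes with 3000 UMIs or more, pDCs made up 1.93% ± 0.326 in NZB, 0.719% ± 0.142 in NZW and 1.57% ± 0.39 in NZBWF1 (SD, n = 3). In each of these 4 ranges the lowest NZB mouse lay above the highest NZW mouse, by little in the middle ranges (5.25 against 4.98% and 3.44 against 3.25%).

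**Figure D2:**
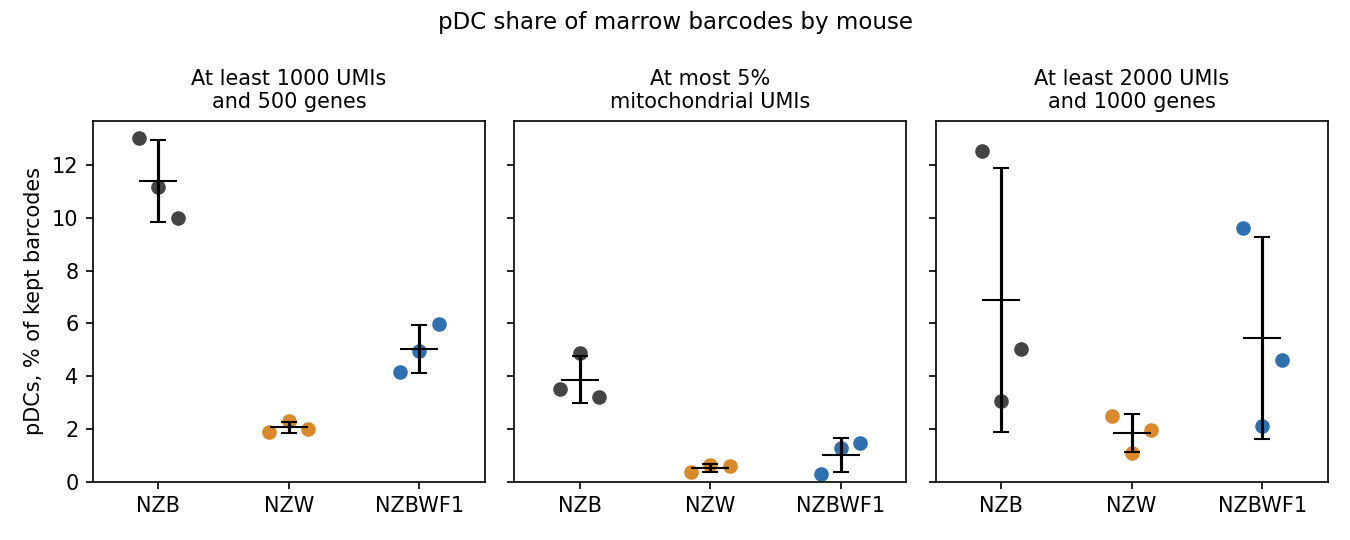
pDCs as a percentage of kept barcodes under 3 quality limits. Dots are mice, bars the mean and SD of 3 mice. With the main limits NZB mice sit between 9.99 and 13%, NZBWF1 between 4.17 and 5.96% and NZW between 1.90 and 2.31%. With at least 2000 UMIs and 1000 genes the hybrid overlaps with both parents, which do not overlap with each other.

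For gene expression, the UMIs of all pDCs of a mouse were summed, and 7028 genes with enough UMIs were compared between strains with edgeR's quasi-likelihood test, 3 mice a group, at an adjusted p of 0.05 (Benjamini-Hochberg over all 7028 genes). Levels below are CPM scaled by edgeR's TMM factors, and SD is over 3 mice. Between the parents, 183 genes were higher in NZB and 195 lower, 5.38% of those tested. Against NZB, NZBWF1 pDCs had 69 genes higher and 47 lower (1.65%), and against NZW 42 higher and 49 lower (1.29%). Of the 378 genes that separated the parents, 344 had an NZBWF1 mean between the parental means, 11 lay above both and 23 below both. On a scale with NZW at 0 and NZB at 1, the median place of the hybrid was 0.531. These comparisons share mice, so the 3 counts are not independent. The gene lists used below were drawn up with earlier results of these data known. The share of a list that was called, set beside that of all genes, is thus a description and no test of the list.

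Against the mid-parent, the mean of both parents on the log2 scale, 28 genes differed in NZBWF1 pDCs (0.398%), 22 higher and 6 lower. The mean of logs is a geometric mean, so a gene close to 0 in 1 parent and near the middle in the hybrid counts as higher. Of the 22 higher genes, 18 had a hybrid mean between the parents and 8 had 3 or fewer UMIs in all pDCs of 1 parent. The other 4, Scd2, Idi1, Cd209d and Ccr2, had a mean above both parents. All 6 lower genes had a mean below both parents. Without NZBWF1 replicate 1, 22 genes were higher and 2 lower, and among the genes described below the calls of Scd2, Idi1, Ctnnd2, Eps8, Psme2b, H2afx, Hmgb2, Smc2 and Hmmr were lost. Reads of all strains were mapped to mm10, the genome of another strain, so for a gene at or near 0 in 1 strain a failure to map cannot be told apart from a lack of transcript.

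A pair of kallikreins was among the genes with the smallest p between the parents. Klk1, a serine protease that releases kinins and was among the genes most enriched in pDCs, stood at 2953, 2682 and 2732 CPM in NZB, 139, 99.5 and 79.1 in NZW and 1033, 801 and 984 in NZBWF1. All NZB mice were above all hybrids, and all hybrids above all NZW mice. The log2 fold change of NZB over NZW was 4.73 ± 0.15 (SE, edgeR adjusted p = 4.36e-34) and that of NZBWF1 over the mid-parent 0.79 ± 0.11 (adjusted p = 2.24e-06), while the hybrid held 0.649 times the arithmetic mean of the parents. Its paralog Klk1b27 had 1375 UMIs in NZB, 360 in NZBWF1 and none in NZW pDCs, which makes NZB at least 131-fold and NZBWF1 at least 49.6-fold higher than NZW, taking 3 UMIs over the strain as the limit of a count of 0. Of 22 kallikrein genes listed, these 2 had enough UMIs to be tested, and both were called in all 4 comparisons. Against the mid-parent both calls were lost with at least 2000 UMIs a cell and with at most 5% mitochondrial UMIs, and held in the other alternatives. Both genes lie in the kallikrein cluster of chromosome 7, Klk1 at chr7:44225360-44229618 and Klk1b27 at chr7:44052290-44056712 (mm10, both on the plus strand). As copies of one family they can share reads, and with their UMIs summed the call against the mid-parent held (log2 fold change 0.97 ± 0.11, adjusted p = 6.88e-09). As the pair moved together, the windows around their starts (250 bases before to 50 after, RefSeq, GRCm38.p6, from the reference strain and not from NZB or NZW) are shown, with each CANNTG, the E-box bound by factors of the TCF4 class, in capitals. CANNTG reads the same on both strands.

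Klk1: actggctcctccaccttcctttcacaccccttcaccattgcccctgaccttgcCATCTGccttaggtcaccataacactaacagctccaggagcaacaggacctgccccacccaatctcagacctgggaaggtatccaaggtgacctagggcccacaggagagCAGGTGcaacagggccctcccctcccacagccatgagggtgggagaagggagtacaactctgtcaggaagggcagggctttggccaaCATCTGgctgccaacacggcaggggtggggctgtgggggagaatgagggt

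Klk1b27: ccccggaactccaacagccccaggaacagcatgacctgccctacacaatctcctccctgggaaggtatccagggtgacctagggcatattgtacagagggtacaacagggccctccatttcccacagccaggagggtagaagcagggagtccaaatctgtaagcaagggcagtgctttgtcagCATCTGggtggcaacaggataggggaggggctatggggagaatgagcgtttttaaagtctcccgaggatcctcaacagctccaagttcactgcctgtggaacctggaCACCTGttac

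The window of Klk1 is chr7:44225110-44225409 and holds 3 such motifs. That of Klk1b27 is chr7:44052040-44052339 and holds 2. Of 32851 windows of this length, 72.3% hold at least 1, 39.6% at least 2 and 17.6% at least 3, so the motif is common. The longest run the 2 windows share is 16 bases.

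Cd7, a surface glycoprotein of the immunoglobulin superfamily known from T, NK and early lymphoid cells, ran the opposite way and was nearly absent from NZB pDCs. It stood at 13.5, 13 and 19 CPM in NZB, 579, 701 and 624 in NZW and 326, 281 and 224 in NZBWF1, with no overlap. The log2 ratio of NZB to NZW was -5.38 ± 0.19 (SE; edgeR, adjusted p = 1.43e-32), and NZBWF1 exceeded the mid-parent by 1.46 ± 0.14 (adjusted p = 2.29e-11). The gene lies at chr11:121036747-121039418 on the minus strand. Ctse, which encodes the endosomal protease cathepsin E, followed the same order with 9.86 ± 4.02 CPM in NZB, 171 ± 19.3 in NZW and 96.6 ± 27.8 in NZBWF1 (NZBWF1 over mid-parent 1.14 ± 0.22, adjusted p = 0.00162). Apobec3, a cytidine deaminase that restricts retroviruses and is induced by interferon, was high in NZB. Its levels were 718, 632 and 744 CPM in NZB, 59, 33.2 and 52.8 in NZW and 402, 337 and 385 in NZBWF1, and NZBWF1 exceeded the mid-parent by 1.03 ± 0.14 (adjusted p = 3.71e-07). For Cd7, Ctse and Apobec3 the hybrid mean lay between the parents, and passing the geometric mid-parent does not place it above their arithmetic mean. With at least 2000 UMIs a cell or at most 5% mitochondrial UMIs the calls of these genes against the mid-parent were lost. They held in the other alternatives. The lowest log2 differences were 0.67, 0.41 and 0.73.

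The ferritin light chain was counted at a pair of loci. Ftl1 was 3063, 2691 and 2797 CPM in NZB, 64.4, 66.3 and 48.4 in NZW and 1116, 1193 and 1257 in NZBWF1, and the near-identical locus Ftl1-ps1 was 22.6, 21.3 and 9.49, 1598, 1568 and 1403 and 889.8, 889 and 1001. Each exceeded the mid-parent, a geometric mean, in the hybrid (log2 fold change 1.53 ± 0.11 and 2.47 ± 0.12, edgeR adjusted p = 8.52e-17 and 2.90e-24). At each locus the hybrids lay between the parents, and the 2 loci had opposite parental order. Reads of the 2 copies may be assigned to either, so each value alone is uncertain. Summed, they were 2868 ± 193 CPM in NZB, 1583 ± 116 in NZW and 2115 ± 129 in NZBWF1, and the difference from the mid-parent was -0.01 ± 0.09 (adjusted p = 1), whereas NZB still exceeded NZW by 0.86 ± 0.11 (adjusted p = 1.26e-08). The heavy chain gene Fth1, at 9416 ± 708, 5502 ± 479.9 and 7313 ± 537 CPM, had the same parental order (NZB over NZW 0.78 ± 0.09, adjusted p = 1.02e-09) and did not differ detectably from the mid-parent (0.02 ± 0.08, adjusted p = 0.988). Tpm3-rs7 and Psme2b, copies of Tpm3 and Psme2, also lost their calls against the mid-parent when summed with them (edgeR adjusted p = 0.701 and 0.999). A sum can dilute the call of a copy that is a small part of it, so these losses cannot show whether reads were shared. NZB over NZW was -0.12 ± 0.13 for the sum with Tpm3-rs7 (adjusted p = 0.765) and 0.51 ± 0.13 for that with Psme2b (adjusted p = 0.00913). These sums were chosen after the data had been seen.

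The remaining higher genes that lay between the parents were mostly near 0 in 1 of them. NZW pDCs had no UMI of Pld5 or BC147527, which makes the hybrid at least 14- and 13.9-fold higher than NZW. The ratio of NZBWF1 to NZW was 51.4 (95% counting interval 14.1 to 427) for Gm42031 and 88.4 (95% counting interval 15.7 to 3508) for Dgkeos, a transcript of the strand opposite Dgke. For Ifi211, an interferon-inducible gene of the IFI200 family, it was 40.5 (95% counting interval 7.1 to 1615). Lefty1, a secreted inhibitor of Nodal signalling, had 3 UMIs in all NZB pDCs, and NZBWF1 was 48.2 (95% counting interval 16 to 238) times as high. Ctnnd2, Eps8 and Arl5c were also low in NZB, with 4.22, 2.24 and 94.2 CPM against 177, 62.3 and 317 in NZW and 68.5, 41.4 and 248 in NZBWF1. Pld5, BC147527 and Lefty1 lost their calls against the mid-parent with at least 2000 UMIs a cell and with at most 5% mitochondrial UMIs, and Dgkeos with the latter. The call against the mid-parent was lost in 6 of 19 alternatives for Ifi211, among them without NZW replicate 3 or NZBWF1 replicate 3. For Ctnnd2 it was lost in 6 of 19, among them when replicate 2 or 3 of NZB or replicate 1 or 2 of the hybrid was left out, and for Eps8 in 5 of 17, among them when replicate 1 of NZB or replicate 1 or 2 of the hybrid was left out. It was lost in 11 of 20 for Arl5c, among them without replicate 2 or 3 of any strain.

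The 4 genes above both parents included a pair of lipid enzymes. Scd2, a stearoyl-CoA desaturase, stood at 102, 85.4 and 83.8 CPM in NZB, 129, 185 and 145 in NZW and 248, 173 and 185 in NZBWF1, and Idi1, an isomerase of the cholesterol pathway, at 85.7, 87.8 and 108, 113, 156 and 114 and 158, 183 and 157. All hybrids exceeded all NZB mice for both genes, and for Scd2 they overlapped with NZW. The differences from the mid-parent were 0.74 ± 0.15 (edgeR adjusted p = 0.00313) and 0.60 ± 0.15 (adjusted p = 0.0494), and those from NZW alone did not pass (adjusted p = 0.592 and 0.588). The call of Scd2 was lost without NZBWF1 replicate 1, whose pDCs had the highest median depth, and that of Idi1 in 15 of 20 alternatives. Cd209d (359 ± 16.2, 192 ± 25.4 and 368 ± 46.6 CPM in NZB, NZW and NZBWF1) lay near the NZB mean, and Ccr2, the receptor for the chemokine CCL2, (155 ± 16.3, 274 ± 52.5 and 289 ± 18.9) near the NZW mean. Each had a difference from the mid-parent of 0.50 (adjusted p = 0.0204 and 0.0304), but the call was lost in 8 of 20 alternatives for Cd209d, among them when doublets were removed or when replicate 2 or 3 of NZW or replicate 3 of the hybrid was left out. For Ccr2 it was lost in 9, among them without NZB replicate 1, NZW replicate 1 or 3, or NZBWF1 replicate 2 or 3.

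The 6 lower genes were Pbk, a mitotic kinase, Hmmr, a spindle protein, Smc2, a condensin subunit, H2afx, a histone variant, and Hmgb2 and Hmgn2, high-mobility group proteins. Of these, Hmgb2 alone is in the list of dividing-cell genes. H2afx stood at 191, 272 and 239 CPM in NZB, 408, 322 and 439.7 in NZW and 165, 209 and 221 in NZBWF1, a difference from the mid-parent of -0.58 ± 0.13 (edgeR adjusted p = 0.00942). Pbk was 27.1 ± 9.2 and 71.1 ± 15 CPM in NZB and NZW and 15.3 ± 4.22 in the hybrid (-1.46 ± 0.31, adjusted p = 0.00904). The hybrids overlapped with NZB for H2afx and Pbk and lay below all NZW mice. None of the 6 passed against NZB alone. Across 32 tested genes of dividing cells, 1 (Hmgb2) passed against the mid-parent, none against NZB and 7 of 32 (21.9%) were lower against NZW, beside 0.398, 1.65 and 1.29% of all genes, with medians of -0.48, -0.25 and -0.90 beside medians between -0.00127 and 0.0103 for all genes tested. The 7 were Nusap1, Cenpa, Cdk1, Hmgb2, Birc5, Tuba1b and Tubb5. Of these, the alternatives were followed for Hmgb2 and Cdk1, and the call of Cdk1 was lost in 10 of 19, among them without any 1 of the NZW mice or without NZBWF1 replicate 1 or 2. NZB lay below NZW in 5 of these 32 (15.6%, against 5.38% of all genes) and above it in none, with Stmn1 at 251, 248 and 267 CPM in NZB and 708, 597 and 1279 in NZW (-1.76 ± 0.27, adjusted p = 0.00799). The call of Stmn1, for which NZW replicate 3 stood far above the other NZW mice, was lost without NZB replicate 1 or NZB replicate 2, and that of Hmgb2 between the parents without NZW replicate 3. Mki67, the standard marker of cycling cells, was 154 ± 42.9, 254 ± 159 and 115 ± 17.2 CPM and passed in none of the 4 comparisons. None of the 6 calls held without NZW replicate 3, without NZBWF1 replicate 2, with Siglech left out of the rule, with at least 2000 UMIs a cell or with at most 5% mitochondrial UMIs.

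**Figure D3:**
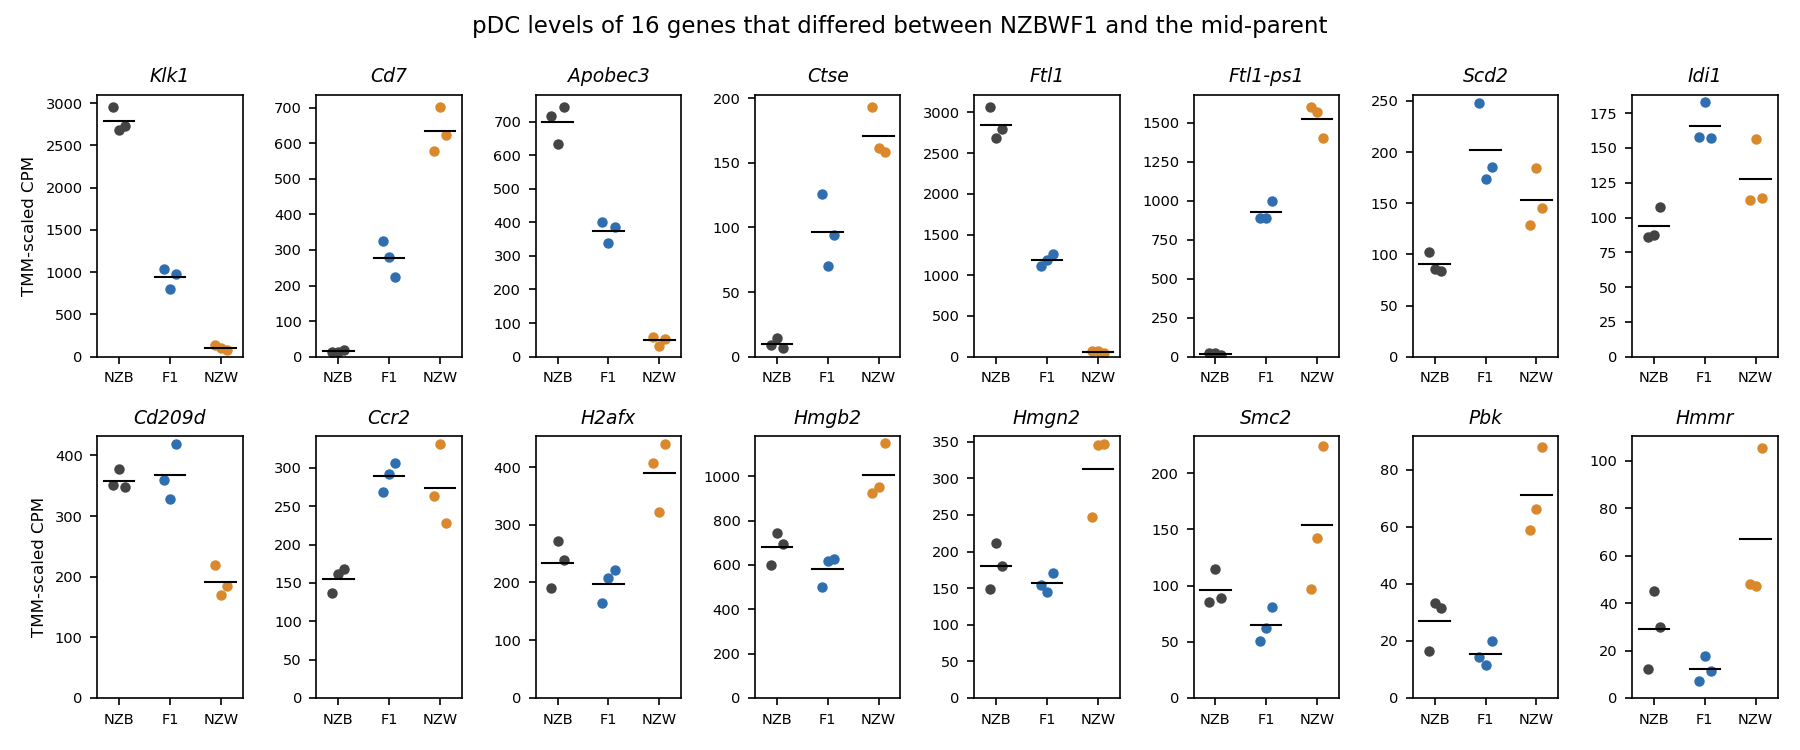
TMM-scaled CPM in pDCs of each mouse (dots) and strain mean (line) for 16 of the 28 genes that differed between NZBWF1 and the mid-parent; each axis starts at 0 and F1 stands for NZBWF1. Klk1 to Ftl1-ps1 lie between the parents, the means of Scd2, Idi1, Cd209d and Ccr2 lie above both, and those of the last 6 genes lie below both.

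Between the parents, 4 identity factors differed and 14 of 18 tested did not pass. Among the latter, Tcf4 was 2038 ± 97.1 CPM in NZB and 2508 ± 73.7 in NZW (adjusted p = 0.0839), Irf8 4646 ± 239 and 5118 ± 333 (adjusted p = 0.539), Spib 595 ± 97.7 and 512 ± 46.6 (adjusted p = 0.482) and Bcl11a 870.0 ± 28.7 and 893 ± 18.8 (adjusted p = 0.925). The 4 that passed (22.2%, against 5.38% of all genes) were lower in NZB (median log2 difference -0.18, beside -0.00434 for all genes). Runx2, needed for pDC exit from the marrow, was 642, 533 and 628 CPM in NZB and 858, 914 and 906 in NZW (-0.57 ± 0.12, edgeR adjusted p = 0.000868), with no overlap and the hybrid between at 807, 789 and 673. The others were Id3, an inhibitor of E proteins such as TCF4 (33.8 and 156 CPM), Xbp1, the factor of secretory cells (151 and 297), and Flt3, the receptor for the dendritic cell growth factor FLT3 ligand (112 and 187). The call of Flt3 was lost without NZW replicate 3, and those of Flt3, Runx2 and Xbp1 with at least 2000 UMIs a cell or at most 5% mitochondrial UMIs. None of the 18 passed against the mid-parent, where 0.398% of all genes did, so a count of 0 is near that share.

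Of 36 tested genes for nucleic acid sensing and interferon induction, 2 were higher and 1 lower in NZB than in NZW (8.33%, against 5.38% of all genes, median 0.15). None passed in a comparison of the hybrid with the mid-parent, NZB or NZW, in which 0.398, 1.65 and 1.29% of all genes did. With 36 genes, a count of 0 is near those shares. Unc93b1, which carries TLR7 and TLR9 to endosomes, was 738 ± 48.7 and 533 ± 49.3 CPM (0.47 ± 0.13, adjusted p = 0.0186), Rel, an NF-κB subunit, 86.9 ± 14.8 and 35.4 ± 26.8, and Pacsin1, an adaptor needed for TLR9-driven interferon, 256 ± 46.3 and 379 ± 68.4. All 3 calls were lost without NZW replicate 1, as were those of Unc93b1 and Rel without NZB replicate 3, that of Rel without NZW replicate 3 and that of Pacsin1 without NZB replicate 2. Tlr7 itself stood at 81.2, 86.6 and 101 CPM in NZB, 69.7, 75.8 and 35.2 in NZW and 96.9, 50.7 and 49.9 in NZBWF1, and the ranges of NZB and the hybrid overlapped (NZBWF1 over mid-parent -0.27 ± 0.23, adjusted p = 0.894). Tlr9 was too rare to be tested, with a UMI in 0.446% of pDCs. Irf7, the master regulator of type I interferon, was 209, 225 and 198, 204, 351 and 255 and 219, 207 and 211 CPM (NZBWF1 over mid-parent -0.18 ± 0.13, adjusted p = 0.876). A list of 24 genes held type I and III interferon genes and the cytokine genes Tnf, Il6, Il12a and Il12b. Of these 24, 2 were detected in pDCs at all and 1 had enough UMIs to be tested. Interferon production itself could thus not be followed at this depth. None of 9 interferon receptor signalling genes passed in any of the 4 comparisons, in which 0.398 to 5.38% of all genes did. With 9 genes, a count of 0 is near those shares.

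The interferon-response genes differed between the parents in both directions. Of 61 tested, 13 were higher and 5 lower in NZB (18 of 61 against 5.38% of all genes, median 0.29). Against the mid-parent 2 passed, Apobec3 and Ifi211 (3.28% against 0.398% of all genes). Ifitm2, a membrane protein that blocks viral entry, was 82.7, 178 and 79.1 CPM in NZB, 1931, 2179 and 1816 in NZW and 1058, 1069.9 and 1330.1 in NZBWF1 (NZB over NZW -4.10 ± 0.34, adjusted p = 0.000619). It is also a gene of neutrophils, whose markers summed to 11414 to 35241 CPM in NZB and 6570.1 to 47499.8 CPM in NZW pDCs, and their part in the difference was not tested. Mndal and Ly6e were lower in NZB too (39.6 and 232 CPM, 889 and 2006 CPM). On the other side, Ifi202b, an IFI200 gene long linked to lupus susceptibility, had 108 UMIs in NZB, 31 in NZBWF1 and none in NZW pDCs, at least 10.3- and 4.27-fold above NZW. The IFI200 genes are a family of close copies, so reads may be shared among them.

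The Ly6 surface proteins, small anchored proteins of chromosome 15, split the parents. Ly6a (Sca-1), an interferon-inducible stem cell marker, was 1178, 1730.5 and 1323 CPM in NZB, 91.2, 223 and 123 in NZW and 377, 285 and 510.4 in NZBWF1 (NZB over NZW 3.26 ± 0.38, adjusted p = 0.00396). The other stem cell markers Kit, Cd34 and Procr were at or below 15.1 CPM in every mouse. Ly6d, a marker of lymphoid-derived progenitors and pDCs, was 945, 1518 and 1251, 2381, 2445 and 2840.3 and 1618, 1280.4 and 1517 CPM (NZB over NZW -1.04 ± 0.13, adjusted p = 4.64e-07), so that NZW stood above both others. Ly6c2 was 199, 204 and 228, 1105, 1374 and 1011 and 391, 583 and 657 CPM, whereas its paralog Ly6c1 had 310 UMIs in NZB, 53 in NZBWF1 and none in NZW. Summed, the 2 stood at 355 ± 23.3, 1164 ± 188 and 582 ± 124 CPM, and NZB stayed below NZW (-1.71 ± 0.14, adjusted p = 1.07e-14).

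Of 37 tested surface and inhibitory receptors, 3 were higher and 8 lower in NZB than in NZW (29.7% against 5.38% of all genes, median 0.05). Against the mid-parent Cd7 alone passed (2.7% against 0.398% of all genes). Beside Cd7 and Ly6d, the lower genes included Slamf6, a self-ligand receptor of the SLAM family (26.3 ± 9.92 and 155 ± 15.7 CPM, 80.1 ± 32.1 in the hybrid), Nrp1, the semaphorin receptor neuropilin-1 (47.8 and 129), and the ephrin receptor Epha2 (30.4 and 86.1). Cd4, carried by a subset of mouse pDCs, was higher in NZB at 257, 244 and 253 CPM against 102, 133 and 123 (1.07 ± 0.17, adjusted p = 7.37e-06), with the hybrid between at 179, 187 and 235. Ptprs, an inhibitory phosphatase of pDCs, was 277 and 187 CPM, but its call was lost in 6 of 20 alternatives, among them DESeq2, a marker sum of at least 5 and the fits without replicate 1 of either parent, and the log2 ratio went down to 0.124. Of 14 homing genes, 3 were lower in NZB and none higher (21.4% against 5.38% of all genes, median -0.10). Against the mid-parent Ccr2 alone passed (7.14% against 0.398% of all genes). Ccr2 itself was among the lower genes, at 155 CPM in NZB and 274 in NZW (NZB over NZW -0.82 ± 0.15, adjusted p = 0.00012), a sign that turned with at most 5% mitochondrial UMIs and with at least 2000 UMIs a cell.

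Of 26 tested antigen presentation genes, 10 were higher and 2 lower in NZB than in NZW, and 14 did not pass (46.2% called, against 5.38% of all genes, median 0.35). Against the mid-parent Ctse alone passed (3.85% against 0.398% of all genes). The class II chain H2-Ab1 was 1393, 1245 and 1136 CPM in NZB, 477, 625 and 453 in NZW and 868, 982 and 1359 in NZBWF1 (NZB over NZW 1.28 ± 0.15, adjusted p = 9.10e-08). The invariant chain Cd74 was 4068 ± 85.8, 2488 ± 499.9 and 4029 ± 797 CPM, so that the hybrid mean lay near that of NZB (NZBWF1 over NZW 0.69 ± 0.14, adjusted p = 0.0114). That call was lost in 6 of 20 alternatives, among them without NZW replicate 1, without NZBWF1 replicate 1 and without Siglech in the rule, and the log2 ratio went down to 0.117. H2-Aa was 1443 ± 9.19, 901 ± 289.8 and 1520.4 ± 242 CPM, and its call between the parents (adjusted p = 0.0368) was lost in 8 of 20 alternatives, among them without any 1 of the NZB mice, NZW replicate 1 or NZBWF1 replicate 1. The class I genes H2-Q6 and H2-Q7, close copies, summed to 528 ± 63.3, 49.6 ± 2.19 and 190.3 ± 38.4 CPM (NZB over NZW 3.41 ± 0.19, adjusted p = 1.52e-21). The parents carry different H2 alleles, and reads were mapped to a reference of another strain, so a difference in mapping cannot be told apart from one in transcript level for these genes. B cells and conventional dendritic cells also make class II RNA, and the part of such cells in these values was not tested. B cell markers summed to 96.9 to 98.8 CPM in NZB, 135 to 210.4 in NZW and 119 to 151 in NZBWF1 pDCs, lowest in NZB, and the conventional dendritic cell markers given above were also lowest in NZB.

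Of 53 ER folding and secretion genes, 3 were higher and 2 lower in NZB than in NZW (9.43% against 5.38% of all genes, median 0.07) and none passed against the mid-parent (0.398% of all genes did). Mzb1, a chaperone of secretory cells, was 96.2 ± 12.3 CPM in NZB, 276 ± 62.4 in NZW and 212 ± 73.9 in NZBWF1 (-1.50 ± 0.20, adjusted p = 5.27e-06), beside plasma cell markers that summed to 52.6 to 11151 CPM in NZW pDCs, the high value being replicate 2 with the Igha cells, and 43 to 55.2 in NZB. Sec24d, of the vesicle coat, was 57.9 and 129.8 CPM. Of 12 lymphoid-type genes, 3 (Blk, Il7r and Mzb1) were lower in NZB (25% against 5.38% of all genes, median -0.25), and none passed against the mid-parent (0.398% of all genes did). Blk, a kinase of the B cell receptor, was 13.5, 16.6 and 11.1 CPM in NZB and 64.4, 4.74 and 57.2 in NZW, so that NZW replicate 2 lay below all NZB mice, and its call was lost in 5 of 17 alternatives, among them DESeq2 and the fits without replicate 1 or 3 of either parent. Dntt, the lymphoid DNA polymerase also made by pDCs, was 122 ± 10.2, 79 ± 63 and 70.1 ± 8.54 CPM and passed in none of the 4 comparisons. It passed when pDCs were compared with the other cells (below), where NZB over NZW was 0.59 in pDCs and -0.70 in the other cells (difference 1.36 ± 0.25, adjusted p = 0.000394). Of 40 known pDC-enriched genes outside the rule, 4 were higher and 8 lower in NZB (30% against 5.38% of all genes, median 0.06). Against the mid-parent 2 passed, Lefty1 and Cd209d (5% against 0.398% of all genes). Bst2 (3143 ± 212, 2654 ± 193 and 2914 ± 137 CPM) and Klra17 (336 ± 47.7, 297 ± 34.2 and 354 ± 24.1) passed in none of the 4 comparisons. Of 14 ferritin and iron genes, Ftl1 and Fth1 were higher and Ftl1-ps1 and Pcbp2 lower in NZB (28.6% against 5.38% of all genes, median -0.03).

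The hybrid was also compared with each parent, where 1.65% of all genes passed against NZB and 1.29% against NZW. Of the 61 interferon-response genes, 5 were higher and 9 lower in NZBWF1 than in NZB (median -0.48), and 5 higher and 3 lower than in NZW (median 0.07). For the 26 antigen presentation genes the counts of higher and lower genes were 1 and 4 against NZB, and 5 and 1 against NZW. For the 37 surface receptors they were 5 and 0 against NZB, and 1 and 2 against NZW. Id3 and Xbp1 were higher in NZBWF1 than in NZB (Id3 not without NZBWF1 replicate 3), and no identity factor passed against NZW. Ccr2 was higher than in NZB, as were Mzb1 and Sec24d, the latter a call lost in 10 of 20 alternatives, while no homing, ER or lymphoid-type gene passed against NZW. Of the 40 pDC-enriched genes, 3 were higher and 0 lower than in NZB, and 1 higher and 3 lower than in NZW. Of the 14 ferritin and iron genes, 1 was higher and 2 lower than in NZB, and 2 higher and 1 lower than in NZW.

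**Figure D4:**
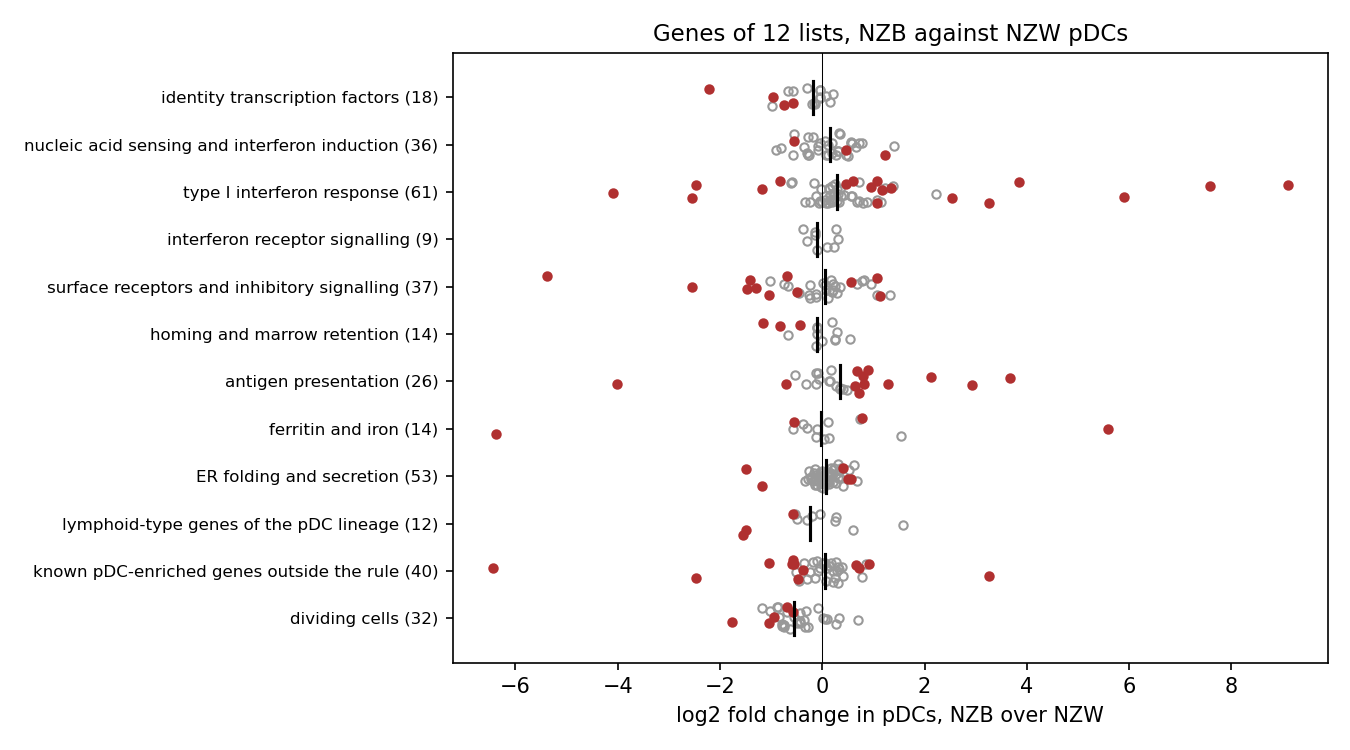
log2 fold change of NZB over NZW in pDCs for the tested genes of 12 lists (number of genes in brackets). Filled red dots passed at an adjusted p of 0.05, open dots did not, and the black bar is the median. Values beyond 5 on either side include genes at or near 0 UMIs in 1 parent (Ly6c1, Ifi202b, Ifi211, Lefty1), where the fitted size has no firm meaning. Identity factors and dividing-cell genes that passed all lie left of 0.

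Outside the lists, other genes that differed between the parents were Glipr1 (297 and 28.5 CPM), the cell cycle inhibitor Cdkn2c (7.07 and 117) and the receptor Plxdc1 (59.8 and 254), each with the hybrid between (112, 45.5 and 176 CPM). The adjusted p of NZB against NZW was 1.45e-11, 6.66e-14 and 1.88e-13.

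At equal depth, the parental differences were also seen as shares of cells. Each pDC was thinned to 1000 UMIs, which left out none of the 2240, and barcodes with neutrophil markers, which should lack most of these genes, served as the background (median 1744.5 UMIs in pDCs and 2554 in the latter before thinning). A UMI of Cd7 was found in 1.01% ± 0.183 of NZB pDCs, 46.7% ± 0.693 of NZW and 25.4% ± 2.96 of NZBWF1 pDCs (SD, n = 3), against 0.358% in the highest mouse of the background. The gene was thus nearly missing from NZB pDCs, and the hybrid lay between the parents. Ly6a went the other way with 48.5% ± 7.22, 8.17% ± 2.95 and 20.9% ± 5.96. The background of Ly6a was 0.384, 0.156 and 0.494%. Ly6d was found in 26.4% ± 2.88, 57.3% ± 5.34 and 39.4% ± 3.38, and its background ran in the same order at 0.659, 3.37 and 2.1%. Cd4 was found in 21.3% ± 0.623, 9.91% ± 1.3 and 17.8% ± 4.06, against 0.0757, 0.0902 and 0.139% in the background. Cd209a (DC-SIGN), a lectin usually used to mark conventional dendritic cells and monocyte-derived cells, was found in 2.54% ± 1.26, 13.2% ± 2.01 and 7.18% ± 3.53, with at most 0.164% in any mouse of the background. Cd209a is 1 of 10 conventional dendritic cell markers listed, which summed to 199 to 244 CPM in NZB, 399.8 to 506 in NZW and 251 to 411 in NZBWF1 pDCs, in the same order, against 66.6 to 83 in the other cells of NZB mice. Flt3 and Clec9a, which pDCs also express, made up much of that sum, while Xcr1, Itgae, Batf3 and Zbtb46 stayed at or below 5.26 CPM in every mouse. For Ly6c2 (17.3% ± 2.15, 57.6% ± 6.9 and 34.6% ± 2.56) the neutrophil barcodes ran in the same order, at 0.393, 48.1 and 28.7%, so they carry this gene themselves in NZW and NZBWF1 and are no background for it. The range over pDC libraries, 53.5 to 65.5% in NZW and 32.6 to 37.5% in NZBWF1, lay above theirs (44.6 to 52.1% and 27.5 to 29.6%). Of the identity factors, Runx2 was found in 44.8% ± 3.77, 60.9% ± 4.3 and 52.2% ± 2.56, with no overlap between the strains, Tcf4 in 85.5% ± 2.93, 91.1% ± 1.95 and 87.5% ± 4.56, Spib in 45.4% ± 5.1, 38.7% ± 4.2 and 42.1% ± 10.2 and Bcl11a in 56.4% ± 2.65, 54% ± 2.47 and 59.7% ± 5.13, and the background of these 4 factors reached 2.93% at most, for Bcl11a in 1 NZW mouse. Bst2 and Irf8 were found in nearly all pDCs, so their shares say little about level. Bst2 was found in 92.5, 92.1 and 93.7% and Irf8 in 97.7, 98.8 and 97.4% of pDCs. Over all mice and without thinning, the shares were 23.6% for Cd7, 44% for Ly6a, 42.1% for Ly6d, 28% for Cd4, 9.42% for Cd209a, 41.3% for Ly6c2, 66.4% for Runx2, 96.4% for Tcf4, 63.2% for Spib, 76.2% for Bcl11a, 98.2% for Bst2 and 99.6% for Irf8.

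**Figure D5:**
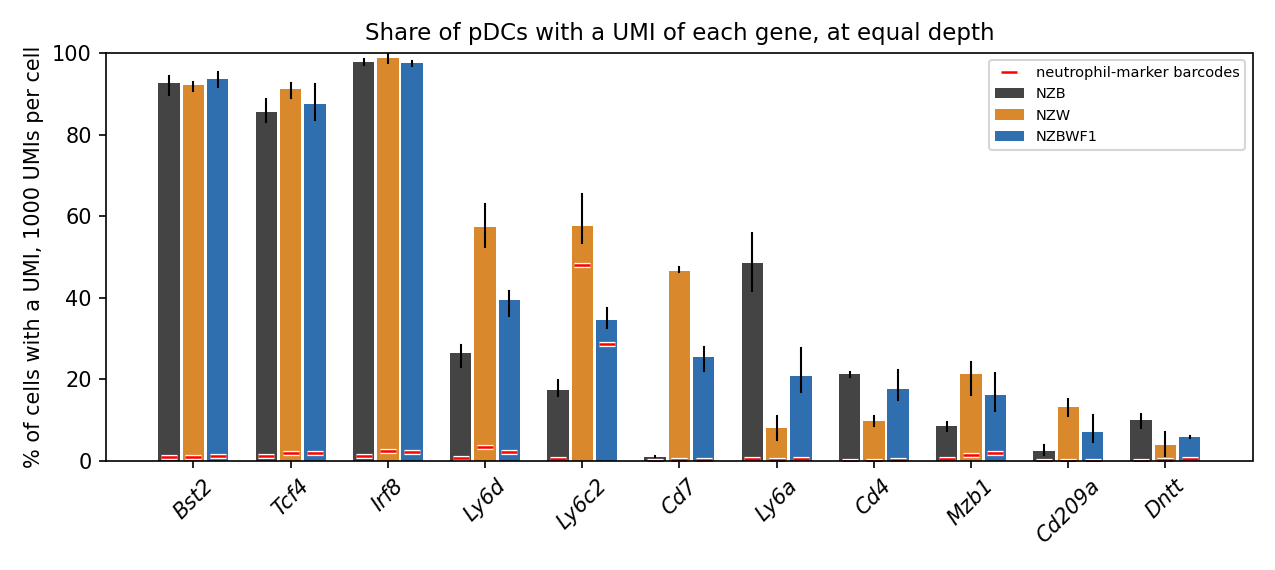
Percentage of pDCs with at least 1 UMI of each gene after thinning every cell to 1000 UMIs. Bars are strain means of 3 mice, black lines span the lowest to the highest mouse, and red marks give the mean in barcodes with neutrophil markers. Cd7 stands at 1.01% in NZB and 46.7% in NZW and Ly6a at 48.5% and 8.17%, with NZBWF1 between.

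Whether a strain difference was larger in pDCs than in the rest of the marrow was asked in one model over the summed UMIs of pDCs and of all other kept cells of each mouse. Of 7028 genes, 14 (0.199%) differed in this way for NZBWF1 over the mid-parent, 3 in the positive and 11 in the negative direction, and 297 (4.23%) for NZB over NZW. For Klk1b27, Pld5, BC147527 and Ifi202b, which had no UMI in NZW pDCs, this fit gave no usable SE, so these genes could not pass. The makeup of the other cells differs between strains, so a difference can come from either set. The 3 positive genes were Cd7, Fdps and Ctse. The mid-parent is a geometric mean, so a wider parental gap in pDCs than elsewhere can alone give a positive difference. The hybrid mean of Cd7 and Ctse in pDCs lay between the parents. NZB over NZW for Ctse was -4.02 in pDCs and -1.20 in the other cells. For Cd7, NZBWF1 over the mid-parent was 1.46 in pDCs and 0.26 in the other cells (difference 1.19 ± 0.19, adjusted p = 0.000468), and NZB over NZW was -5.38 in pDCs and -0.16 in the other cells (difference -5.19 ± 0.24, adjusted p = 4.63e-19). For Ctse it was 1.14 in pDCs and -0.16 in the other cells (difference 1.32 ± 0.25, adjusted p = 0.00799) against the mid-parent, and for Fdps, the cholesterol enzyme after Idi1, 0.59 in pDCs and -0.41 in the other cells (difference 0.98 ± 0.17, adjusted p = 0.0026). The same values were, among the negative genes, -0.58 in pDCs and 0.05 in the other cells (difference -0.67 ± 0.13, adjusted p = 0.00799) for H2afx, and -1.46 in pDCs and 0.01 in the other cells (difference -1.52 ± 0.31, adjusted p = 0.011) for Pbk. They were -0.02 in pDCs and 1.05 in the other cells (difference -1.04 ± 0.15, adjusted p = 0.000246) for Blnk, an adaptor of the B cell receptor, and 0.05 in pDCs and 0.82 in the other cells (difference -0.78 ± 0.15, adjusted p = 0.00799) for the cytokine receptor gene Il7r. The call count against the mid-parent fell to 4 without NZBWF1 replicate 1. Ftl1 and Ftl1-ps1 exceeded the mid-parent in both sets, by 1.53 and 1.37 for Ftl1 and by 2.47 and 2.63 for Ftl1-ps1, and the differences between the sets did not pass (adjusted p = 0.824 and 0.817).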

How the data were processed

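Single-cell libraries of femoral marrow were made with the 10x Chromium 3′ kit, and the authors deposited raw UMI counts per gene and barcode for all 9 libraries in 1 aggregated matrix, made with Cell Ranger 3.1.0 against mm10 per the submitters' processing notes. No per-sample column was left unused. Libraries were told apart by the number after each barcode. pDCs were chosen by the UMI rule given above, and neither that rule, the gene lists nor the tests are independent of the data, since members and lists were chosen with earlier results of these data known.

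UMIs of the pDCs were summed per mouse and tested with edgeR 4.0.16 (R 4.3.3; TMM, quasi-likelihood, all 9 mice in 1 fit, contrasts of strain means, Benjamini-Hochberg). The genes of the rule were not tested. The SE beside a log2 fold change was taken as its size over the square root of the quasi-likelihood F statistic, so it is approximate. Shares of cells were compared by exact permutation over mice. The labels give 3 mice per strain, and p-values rest on the spread between these mice. For genes, edgeR moderates that spread toward a trend over all genes tested (median prior degrees of freedom 51.8). Counting intervals are exact (95%), and they and the limit of 3 UMIs for a count of 0 cover counting error only. The genes named are the 10 with the smallest p in each direction and comparison, called list genes against the mid-parent, a fixed set of pDC genes, and the 5 per direction with the smallest p in the comparison with other cells; other list genes, Scd2, Idi1, Psme2b and all sums of copies were named after their values were seen. On simulated counts (100 genes changed 2-fold and 100 changed 4-fold among 6864), the test of NZBWF1 against the mid-parent recovered 64 of 100 genes changed 2-fold and 94 of 100 changed 4-fold, with 13 others called. Doublets were scored in each library by simulated pairs and removed only in an alternative. Alternatives were other cell limits, the rule without Siglech or with a higher marker sum, DESeq2 1.42.0 and its size factors, other filters, free RNA subtracted, a replicate block and each mouse left out. Gene positions are from GENCODE M21 on the same assembly. Some genes that the rule names are not reported here.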

Additional observations from a re-analysis of the deposited data

Results flagged for a closer look

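The strain difference of some genes was not the same in pDCs as in the rest of the marrow, by a test of the difference itself (edgeR quasi-likelihood, adjusted p below 0.05 over 7028 genes). As the log2 change in pDCs minus that in the other cells, NZBWF1 against the mid-parent gave Cd7 1.19, Fdps 0.98, Ctse 1.32, Blnk -1.04, Sdc4 -0.92, H2afx -0.67, Marcks -0.75 and Il7r -0.78. For NZB against NZW the genes with the smallest p gave Sdc4 2.54, Blnk 1.80, Cd72 2.23, Rpgrip1 2.16, Ptp4a3 1.26, Cd7 -5.19, Ly6e -1.28, Cdkn2d -1.30 and Pira2 -1.91. The makeup of the other cells differed between strains, and its part in these values was not tested. Cd7, Sdc4 and Blnk were in both groups. As the mid-parent is a geometric mean, the wider parental gap of Cd7 and Ctse in pDCs can alone give their positive values. The level of Cd7 in the other cells differed by -0.16 on the log2 scale between NZB and NZW, against -5.38 in pDCs.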

How the results depend on the processing

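In the order NZBWF1 against the mid-parent, against NZB, against NZW, and NZB against NZW, the numbers of genes called were 28, 116, 91 and 378. With DESeq2 they were 16, 63, 60 and 205, of which 15, 62, 51 and 202 were shared. With at least 2000 UMIs and 1000 genes per cell they were 4, 10, 9 and 53, and with at most 5% mitochondrial UMIs, which leaves out NZW replicate 1 and NZBWF1 replicate 1 for having under 10 cells, 3, 22, 7 and 74; both keep far fewer cells. With at least 10 UMIs in every mouse they were 11, 102, 53 and 261. Leaving out each mouse gave 16 to 32, 70 to 124, 45 to 99 and 230 to 428, the lowest against the mid-parent without NZW replicate 3 (16) or NZBWF1 replicate 2 (17), with none lower in NZBWF1 in either. The comparison of pDCs with the other cells gave, with each mouse left out, 4 to 39 genes for the mid-parent (4 without NZBWF1 replicate 1, 14 with all mice, 36 with no filter) and, with each mouse left out, 153 to 311 for the parents (297 with all mice, 353 with no filter and 329 with doublets removed).

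The pDC share of NZB minus NZW was 9.32 percentage points and 8.5 to 10 with each mouse left out. It was 5.03 (3.72-fold) where at least 2000 UMIs and 1000 genes were required, and the test of the 3 strains, past the threshold with the main limits, then gave an exact permutation p = 0.296. With at most 5% mitochondrial UMIs it was 3.34 (exact permutation p = 0.0143). NZBWF1 minus the parents was -1.7 and -2.66 to -0.438 with each mouse left out, and turned to 1.09 at that depth limit.

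Of 169 results for named genes, 39 kept the call in every alternative with a value, and 442 of 3278 alternative values lost it without changing sign. Alternatives in which a gene was not tested are not counted. Signs turned 4 times: H2afx against the mid-parent 0.0947 and, for NZB against NZW, Ccr2 0.0979 and Fdps 0.211 with at most 5% mitochondrial UMIs, and Ccr2 0.0515 with at least 2000 UMIs. The cause was not tested.

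Mice with the same replicate number correlated in their deviations at -0.09 to 0.32 over 2784 genes (mean 0.147, against -0.0733 for other numbers). Each mouse numbered 1 or 2 correlated most with a mouse of its own number and none numbered 3 did. The main fit did not take the numbers as pairs, so it leaves out structure that mice numbered 1 or 2 may share. A fit with the replicate block called 39, 140, 110 and 384 genes. The planned comparison with conventional dendritic cells was not run, as only 2 mice had 10 such cells. Depth limits genes with few UMIs in NZW, whose pDCs summed to 619677 UMIs over 3 mice in the tested genes.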

Other observations

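A list of 24 sterol and fatty acid synthesis genes, drawn up after Scd2 and Idi1 had been seen among the genes above both parents and therefore given without a test of the list, held 22 tested genes. Against the mid-parent 2 passed, Scd2 and Idi1, and the median log2 difference was 0.50, beside 0.0103 for all genes. Against NZB 7 were higher in the hybrid and none lower (median 0.76), against NZW none passed (median 0.17), and between the parents 5 were lower in NZB and none higher (median -0.52). Of all genes, 0.398, 1.65, 1.29 and 5.38% passed in these comparisons. Fdps, farnesyl diphosphate synthase, was 81.2, 107 and 99.7 TMM-scaled CPM in NZB, 166, 232 and 119 in NZW and 176, 193 and 204 in NZBWF1, and Hmgcs1, the synthase at the start of the pathway, was 67.7, 116 and 128, 188, 242 and 163 and 154, 228 and 214. For both genes all hybrids exceeded all NZB mice and overlapped with NZW, and the calls between the parents were lost without NZW replicate 2. The comparisons with NZB and with the mid-parent share mice.

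Of called barcodes outside the quality limits, 148 also met the marker rule, 46 of them over 10% mitochondrial UMIs. They were 7.73% of all barcodes with the marker rule in NZB, 3.85% in NZW and 4.5% in NZBWF1.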
